A study of Rattus norvegicus with 7 samples.

Results

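Fatty acid synthesis and uptake genes were examined in alveolar type 2 cells of ethanol-fed rats. The set comprised 10 genes, namely Srebf1, Acly, Acaca, Fasn, Me1, Scd, Lpl, Cd36, Fabp5 and Acsl4, and every probe set that the array annotation gave to 1 of these symbols alone was taken. All 10 were present, with 23 probe sets among the 8740 tested, which covered 4736 named genes. A further 6 probe sets were annotated to 1 of the 10 together with related genes, 5 of them with Cd36, and were left out because they name no single gene.

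The ethanol group was 3 male Sprague Dawley rats on the Lieber-DeCarli liquid diet with 36% of calories as ethanol for 6 weeks, and the control group was 4 male Sprague Dawley rats on the isocaloric diet without ethanol for 6 weeks. From each animal the type 2 cells were purified by immuno-adsorption, and RNA from them was hybridised to an Affymetrix array, 1 array per animal, so the p-values measure the spread between animals. Arrays are called by the titles' replicate numbers, ethanol 2, 3 and 4 and control 1, 2, 3 and 4. All values are the deposited log2 expression values. In the titles the control arrays are numbered before the ethanol arrays, so diet and numbering cannot be told apart.

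By their brightest probe set the isolates read as type 2 cells. On 7 of 7 arrays the brightest probe set was that of Sftpc, which encodes a surfactant protein made by these cells. The mean level of 11 measured type 2 cell markers was 8.76, 9.16 and 9.41 on ethanol 2, 3 and 4, and 9.02 to 9.40 on the control arrays, where control 2 was the lowest. The SD of all log2 values on an array ran from 1.34 to 1.46 with ethanol and from 1.29 to 1.44 in the controls, and it was lowest on control 2 and next lowest on ethanol 2. In bulk RNA, fewer cells of a type and less RNA per cell cannot be told apart.

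Type 2 cells need fatty acids for the phosphatidylcholine of surfactant, and obtain them both by making them and by taking them up. Synthesis starts when the product of Acly splits citrate into acetyl-CoA. The enzyme encoded by Acaca turns acetyl-CoA into malonyl-CoA, Fasn encodes the enzyme that builds palmitate from it, Me1 encodes an enzyme that supplies NADPH, and Scd encodes a desaturase that makes monounsaturated fatty acids. Srebf1 encodes SREBP-1, the transcription factor that drives these synthesis genes in liver. On the uptake side, Lpl encodes the lipase that frees fatty acids from circulating triglyceride, Cd36 a membrane receptor for fatty acids, Fabp5 a carrier protein in the cytosol, and Acsl4 an enzyme that joins long-chain fatty acids to coenzyme A.

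RefSeq promoter sequences on the GRCr8 assembly were at hand for 6 of the 10 genes (Srebf1, Acly, Me1, Scd, Cd36 and Acsl4), and those of the regulator and of 2 synthesis enzymes are shown, since SREBP-1 acts at such promoters together with NF-Y, which binds the CCAAT box, and Sp1, which binds the GC box. Each covers 250 bases before and 50 after an annotated start, 5′ to 3′ on the gene's strand, with CCAAT and GGGCGG, searched on both strands, in capitals. The Acly promoter lies at chr10:85963582-85963881 (minus strand), those of the upstream and downstream starts of Srebf1 at chr10:45529115-45529414 and chr10:45518961-45519260 (both minus strand), and the Scd promoter at chr1:253231682-253231981 (minus strand).
Acly: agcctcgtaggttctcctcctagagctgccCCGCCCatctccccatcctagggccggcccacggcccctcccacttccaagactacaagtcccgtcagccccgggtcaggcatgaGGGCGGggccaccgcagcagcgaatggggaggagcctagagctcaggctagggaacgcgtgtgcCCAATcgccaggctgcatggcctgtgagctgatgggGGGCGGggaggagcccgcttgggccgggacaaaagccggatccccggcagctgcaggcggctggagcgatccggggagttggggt
Srebf1 upstream start: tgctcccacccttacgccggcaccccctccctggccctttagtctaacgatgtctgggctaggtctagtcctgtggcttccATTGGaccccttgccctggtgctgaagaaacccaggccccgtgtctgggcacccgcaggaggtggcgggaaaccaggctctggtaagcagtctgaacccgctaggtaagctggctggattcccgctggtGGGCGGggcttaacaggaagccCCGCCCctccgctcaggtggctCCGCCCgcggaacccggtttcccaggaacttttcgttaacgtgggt
Srebf1 downstream start: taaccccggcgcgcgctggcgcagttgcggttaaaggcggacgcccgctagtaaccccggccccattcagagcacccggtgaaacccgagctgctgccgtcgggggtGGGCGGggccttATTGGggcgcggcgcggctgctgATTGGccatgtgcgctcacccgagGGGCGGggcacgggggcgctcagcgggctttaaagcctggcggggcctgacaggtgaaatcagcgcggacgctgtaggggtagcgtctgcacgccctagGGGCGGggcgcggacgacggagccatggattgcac
Scd: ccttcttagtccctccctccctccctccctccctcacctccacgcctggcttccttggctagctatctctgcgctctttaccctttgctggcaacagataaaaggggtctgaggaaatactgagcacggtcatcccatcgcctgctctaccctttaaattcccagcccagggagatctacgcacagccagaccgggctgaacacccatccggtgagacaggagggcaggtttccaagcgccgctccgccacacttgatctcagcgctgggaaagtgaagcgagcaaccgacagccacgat

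The Acly promoter held 1 CCAAT box and 3 GC boxes. The upstream start of Srebf1 had 1 and 3, and the downstream start 2 and 3. These letters were not found in the Scd window. Of all 33469 RefSeq promoters of this length, 37.5% hold CCAAT and 33.1% hold GGGCGG on either strand. A 10-base form of the sterol regulatory element, at which SREBP binds, was also searched. It was not found in the 7 promoters of these genes, and 0.269% of all promoters hold it. Neither was the E-box CACGTG, which 6.42% hold. A match of letters is a description and not a binding site.

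No probe set of the 10 genes passed the test between ethanol-fed and control rats. At limma adjusted p under 0.05 the count was 0 of 23, beside 0.149% of all probe sets. At unadjusted p under 0.05 it was 1 of 23 (4.35%), a Fasn probe set that was higher with ethanol, beside 4.58% of all probe sets in either direction (2.13% higher and 2.45% lower), so the share lay near the background. The ethanol and control arrays overlapped in all 23 probe sets, whereas in 5.24% of all probe sets they did not. Of the 23 differences, 9 were above 0 and 14 below, with a median of -0.028 on the log2 scale beside -0.0051 over all probe sets. With the brightest probe set standing for each gene, 5 genes lay above 0 and 5 below.

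The intervals show what this many arrays can exclude. The 95% confidence interval lay within a 1.5-fold change in either direction for 9 of 23 probe sets and, of the brightest ones, for Srebf1, Acaca and Acsl4. It lay within a 2-fold change for 17 of 23 and also for the brightest probe sets of Acly, Me1, Cd36 and Fabp5. For Fasn, Scd and Lpl a 2-fold change in at least 1 direction stayed inside the interval.

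**Figure D1:**
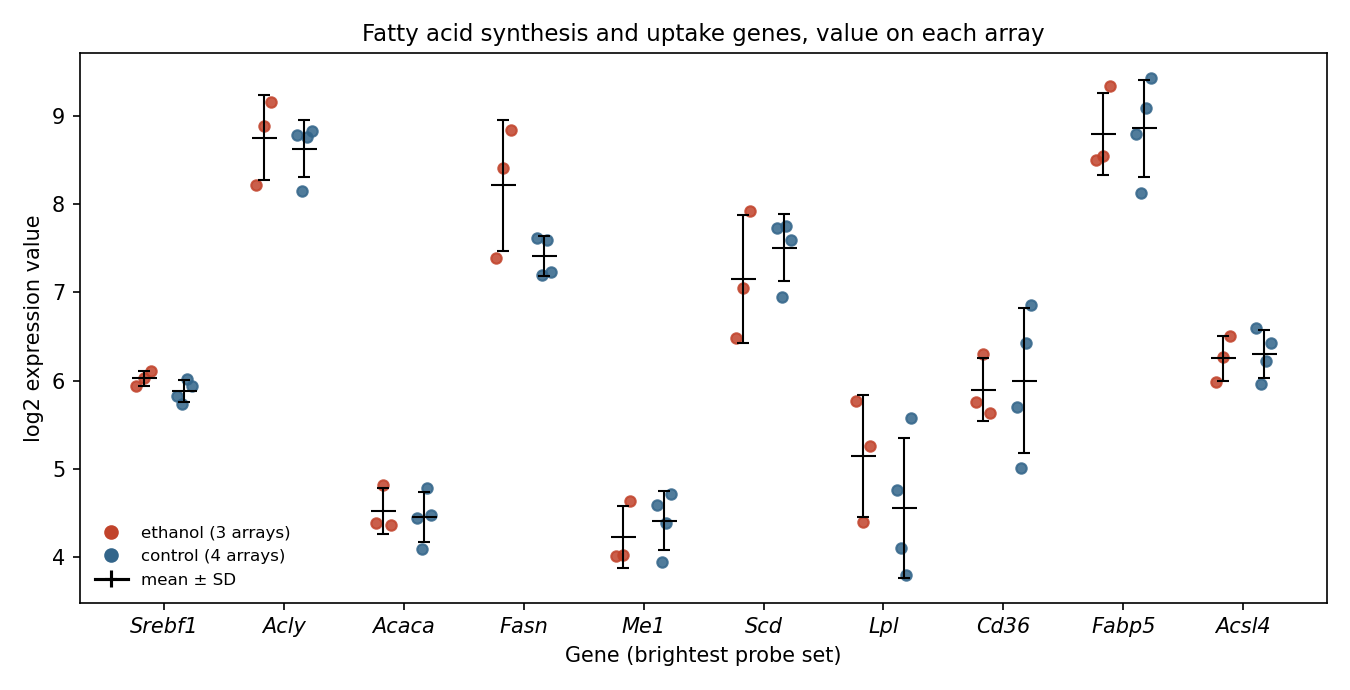
Log2 expression values (y axis) of the brightest probe set of each of the 10 genes (x axis), with 1 point per array, 3 ethanol arrays left of 4 control arrays, and bars for mean ± SD. Points of the groups overlap in every gene, and Fasn shows 2 ethanol arrays, at 8.40 and 8.84, above the controls at 7.19 to 7.62.

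Srebf1, the regulator, varied little between arrays. Its probe set L16995_at read 5.93, 6.03 and 6.11 in ethanol 2, 3 and 4, against 5.83, 5.74, 6.02 and 5.94 in control 1, 2, 3 and 4. The highest array was ethanol 4 and the lowest control 2, and ethanol 2 lay inside the control range. The difference was 0.14 (SE 0.12, 95% confidence interval -0.13 to 0.41, limma adjusted p = 0.967), and with each array left out it was 0.093 to 0.19. In fold terms the interval spans 0.916 to 1.33 times the control level.

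Acly, the source of cytosolic acetyl-CoA, did not pass in any of its 3 probe sets. The brightest, J05210_g_at, read 8.22, 8.88 and 9.16 in ethanol 2, 3 and 4, against 8.78, 8.15, 8.76 and 8.83 in control 1, 2, 3 and 4. Ethanol 2 and control 2 stood below the other arrays. Its difference was 0.12 (SE 0.24, 95% confidence interval -0.42 to 0.67, limma adjusted p = 0.971). The other probe sets gave -0.020 (-0.57 to 0.53) for J05210_at and -0.19 (-0.60 to 0.23) for L27075_g_at. In J05210_at ethanol 2 was again low, at 5.66, and in L27075_g_at the lowest was control 2, at 4.67. Without ethanol 2 the difference of J05210_g_at was 0.39, and without ethanol 4 it was -0.079.

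Acaca, which encodes acetyl-CoA carboxylase, had 1 probe set, J03808_at, with 4.38, 4.82 and 4.36 in ethanol 2, 3 and 4, against 4.44, 4.09, 4.79 and 4.48 in control 1, 2, 3 and 4. Ethanol 3 and control 3 were the highest, 1 in each group. The difference was 0.068 (SE 0.18, 95% confidence interval -0.34 to 0.48, limma adjusted p = 0.976).

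Fasn, the fatty acid synthase gene, showed the lowest unadjusted p of the 10 genes. Probe set M76767_s_at read 7.39, 8.40 and 8.84 in ethanol 2, 3 and 4, against 7.62, 7.19, 7.59 and 7.23 in control 1, 2, 3 and 4. Ethanol 3 and 4 lay above every control, while ethanol 2 lay within the control range. The group means were 8.21 ± 0.747 with ethanol (SD, n = 3) and 7.41 ± 0.23 in the controls (SD, n = 4). The difference was 0.80 (SE 0.30, 95% confidence interval 0.13 to 1.47, limma adjusted p = 0.967), or 1.74 times the control level. An exact two-sided permutation test, added after the values were seen, over the 35 splits of the arrays gave p = 0.114, where the smallest possible is 0.0286.

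The second Fasn probe set, X13527cds_s_at, pointed the same way and was smaller. It read 6.63, 7.72 and 7.18 in ethanol 2, 3 and 4, against 6.61, 6.33, 7.06 and 7.12 in control 1, 2, 3 and 4. Here 2 ethanol arrays again stood above all controls, and ethanol 3 rather than ethanol 4 was the highest. The difference was 0.40 (SE 0.27, 95% confidence interval -0.21 to 1.01, limma adjusted p = 0.967). Single arrays moved these values. Without ethanol 2 the difference of M76767_s_at was 1.21 (limma adjusted p = 0.0832), and without ethanol 4 it was 0.49 (adjusted p = 0.983). X13527cds_s_at gave 0.67 without ethanol 2 and 0.12 without ethanol 3. After quantile normalization M76767_s_at stood at 0.69, and the mean of both probe sets at 0.60.

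Me1, the NADPH-supplying malic enzyme gene, had 5 probe sets, and all 5 differences were below 0. They ran from -0.22 in M26594_at to -0.025 in rc_AI171067_at. None passed, with limma adjusted p of 0.967 to 0.985. The brightest, rc_AI008020_at, read 4.02, 4.02 and 4.63 in ethanol 2, 3 and 4, against 4.59, 3.95, 4.39 and 4.71 in control 1, 2, 3 and 4. Ethanol 2 and 3 and control 2 were low. The difference was -0.19 (95% confidence interval -0.67 to 0.30). The mean level of each of the 5 lay below the median of all probe sets, and that of rc_AI171506_at at the 5.22 percentile, so a change in these dim probe sets could be understated.

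Scd, the stearoyl-CoA desaturase gene, spread widely among the ethanol arrays. J02585_at read 6.48, 7.05 and 7.92 in ethanol 2, 3 and 4, against 7.73, 6.94, 7.75 and 7.59 in control 1, 2, 3 and 4. Ethanol 2 was the lowest of all 7 arrays and ethanol 4 the highest, so the ethanol values spread on both sides of the controls. The difference was -0.35 (SE 0.32, 95% confidence interval -1.07 to 0.36, limma adjusted p = 0.967). It was -0.74 without ethanol 4 and -0.020 without ethanol 2. The other Scd probe set, rc_AI175764_s_at, lay near the lower end of the array, at 1.92 to 2.07 with ethanol and 1.89 to 2.26 in the controls.

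Scd2, a related desaturase gene, was no member and is given for comparison. Its 6 probe sets disagreed, with 3 differences above 0 and 3 below, from -0.26 in AF036761_at to 0.54 in rc_AA875269_at. The dim M15114_at stood at 0.45 (limma adjusted p = 0.967). Desaturase genes share sequence, so their probe sets may read each other's transcripts.

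**Figure D2:**
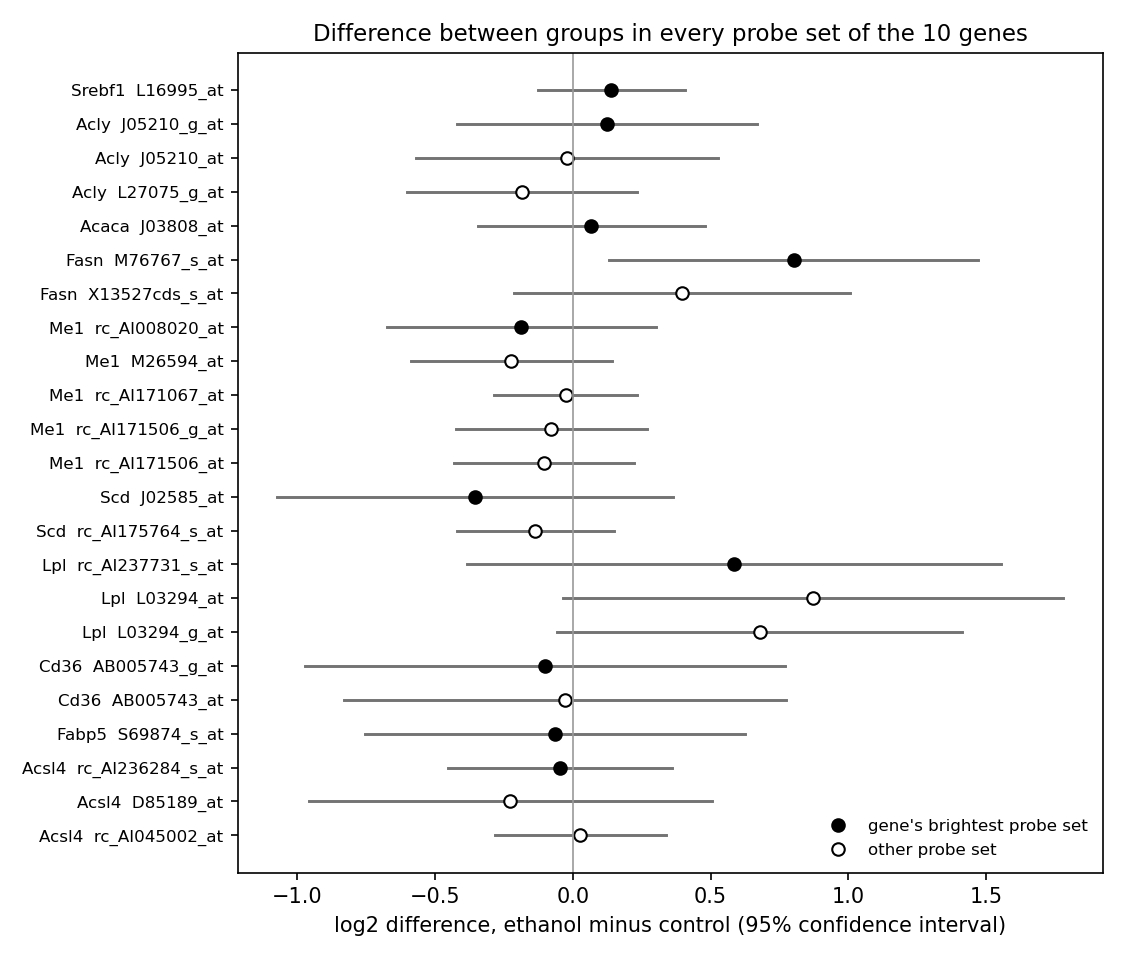
Log2 difference, ethanol minus control (x axis), with its 95% confidence interval for each of the 23 probe sets (y axis), with filled points for the brightest probe set of a gene. The interval of Fasn M76767_s_at, 0.13 to 1.47, is the 1 interval that leaves out 0 before adjustment, and the 3 Lpl intervals reach from below 0 to as high as 1.78.

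Lpl, the lipoprotein lipase gene, was highest on ethanol 2, ethanol 4 and control 4. The brightest probe set, rc_AI237731_s_at, read 5.77, 4.40 and 5.26 in ethanol 2, 3 and 4, against 4.76, 4.10, 3.79 and 5.58 in control 1, 2, 3 and 4. L03294_at gave 6.04, 4.53 and 5.22 in ethanol 2, 3 and 4, against 3.95, 4.13, 4.11 and 5.38 in control 1, 2, 3 and 4. L03294_g_at gave 5.71, 4.39 and 5.11 in ethanol 2, 3 and 4, against 4.23, 4.16, 4.07 and 5.10 in control 1, 2, 3 and 4. In all 3 probe sets ethanol 2, control 4 and ethanol 4 were the 3 highest arrays, with ethanol 2 first, and ethanol 3 lay well below them. In L03294_at and L03294_g_at ethanol 3 still lay above control 1, 2 and 3, so control 4 alone overlapped the ethanol arrays. In rc_AI237731_s_at ethanol 3 lay below control 1. The 7 arrays spanned 4.28-fold in L03294_at.

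The Lpl differences were 0.59, 0.87 and 0.68 in the same order of probe sets, all above 0, with 95% confidence intervals of -0.38 to 1.55, -0.035 to 1.78 and -0.057 to 1.41 and a limma adjusted p = 0.967 in each. Without control 4 they were 0.92, 1.20 and 0.91, with adjusted p from 0.377 to 0.538. Without ethanol 2 they were 0.27, 0.48 and 0.36, and without ethanol 3 they were 0.96, 1.24 and 1.02. The within-group SD of the 3 Lpl probe sets lay at the 97.4 to 99.2 percentile of all probe sets.

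Macrophages and adipocytes also make Lpl, and their markers were read on the same arrays. The mean of 13 measured macrophage and monocyte markers, of 25 listed, was 5.05, 4.73 and 4.77 in ethanol 2, 3 and 4, against 4.70, 4.76, 4.70 and 5.04 in control 1, 2, 3 and 4. Ethanol 2 and control 4 were the highest here too, while ethanol 4 lay close to the rest. Ctss, the cathepsin S gene on that list, read 6.77, 5.96 and 6.44 in ethanol 2, 3 and 4, against 5.73, 5.57, 5.06 and 6.68 in control 1, 2, 3 and 4, with ethanol 2, control 4 and ethanol 4 the highest, as in Lpl. Csf1r, the macrophage growth factor receptor gene, peaked on ethanol 4 instead, at 4.72, and lay at 4.22 on control 4. C1qc was highest on control 1, at 5.73, and lowest on ethanol 4, at 5.19. Itgam and Spp1, dim at the 2.55 and 7.53 percentile of mean level, were highest on control 4, at 2.86 and 4.32. Ethanol 3 came next for Itgam and control 3 for Spp1. The brighter Lgals3 and Cd14 were highest on control 4, at 8.63 and 6.43. Ethanol 2 followed, at 8.15 and 6.28, then ethanol 4, at 7.73 and 5.98. Aif1, also bright, was highest on ethanol 2, at 7.38, followed by control 3, at 7.19. Fcgr2b, C1qb and Mmp12 were highest on control 2, Ccr2 on ethanol 2 and Cx3cr1 on ethanol 3. Of the 13 differences 10 lay above 0 and 3 below, with C1qc at -0.27 and Spp1 at -0.55, beside 46.6% of all genes above 0. The macrophage genes Cd68, Marco and Mrc1 had no probe set of their own symbol. The mean of 7 adipocyte markers, Fabp4 among them, was 5.53 to 5.84 on the ethanol arrays and 5.56 to 5.80 on the control arrays, highest on ethanol 2 and control 4. The part of these cells in the Lpl values was not tested.

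Of 77 other lipid genes on the fixed lists, those with array patterns nearest to Lpl were Lipa, the lysosomal acid lipase gene, Fabp4, a fatty acid carrier gene, and Plin2, a lipid droplet coat gene. Likeness was the root mean square distance over the 7 arrays between values centred on each gene's mean, 0.277 for Lipa, 0.301 for Fabp4 and 0.320 for Plin2, while Lpl itself departed from its mean by 0.699. Fabp4 read 5.07, 4.09 and 4.86 in ethanol 2, 3 and 4, against 4.67, 4.24, 3.87 and 5.75 in control 1, 2, 3 and 4. Lipa read 6.91, 5.73 and 6.27 in ethanol 2, 3 and 4, against 5.82, 4.90, 5.48 and 7.05 in control 1, 2, 3 and 4. In both, control 4 was the highest array and ethanol 2 the next.

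**Figure D3:**
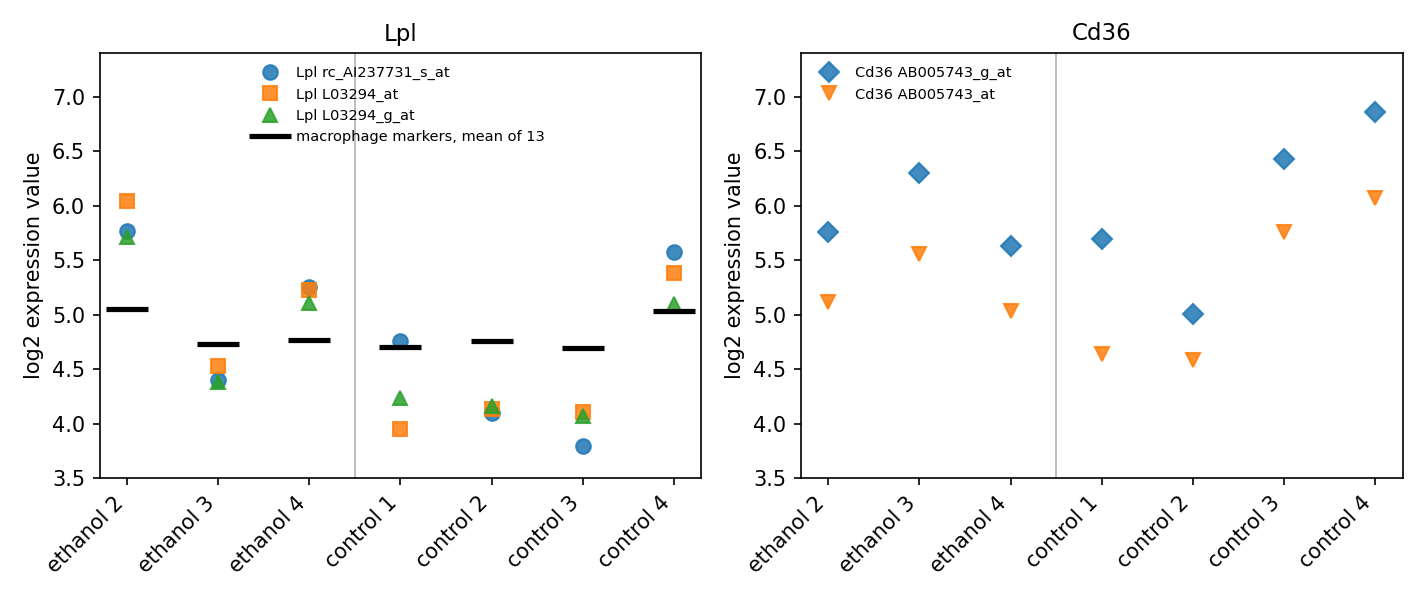
Log2 expression values (y axis) on each array (x axis, ethanol arrays left of the line) for 3 Lpl probe sets with the mean of 13 macrophage markers as black bars (left panel), and for 2 Cd36 probe sets (right panel). The Lpl probe sets are highest together on ethanol 2, ethanol 4 and control 4, and the Cd36 probe sets run in parallel from 5.01 on control 2 to 6.86 on control 4 in AB005743_g_at.

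Cd36, the fatty acid receptor gene, spread widely among the controls. AB005743_g_at read 5.76, 6.30 and 5.63 in ethanol 2, 3 and 4, against 5.70, 5.01, 6.43 and 6.86 in control 1, 2, 3 and 4. The ethanol arrays all lay inside the control range, between the low control 2 and the high control 4. The difference was -0.10 (SE 0.39, 95% confidence interval -0.97 to 0.77, limma adjusted p = 0.982). AB005743_at had the same order of the top 3 arrays, control 4, control 3 and ethanol 3, and a difference of -0.028 (-0.83 to 0.77). Without control 2 the difference of AB005743_g_at was -0.43, and without control 4 it was 0.19. Endothelial cells carry Cd36 as well, and the mean of 12 endothelial markers was 5.19 to 5.33 on the ethanol arrays and 5.28 to 5.34 on the control arrays, lowest on ethanol 4 and highest on control 3. Single markers varied more than their mean, and Edn1, the endothelin 1 gene, read 5.92, 6.53 and 6.56 in ethanol 2, 3 and 4, against 6.94, 6.12, 6.93 and 7.11 in control 1, 2, 3 and 4. Other endothelial markers peaked elsewhere, Vwf on control 2, at 6.03, Kdr on control 1, at 3.83, and Pecam1 on ethanol 2, at 4.12. On control 4 Kdr read 2.85 and Vwf 5.49. The macrophage and adipocyte marker means, given with Lpl, were highest on ethanol 2, at 5.05 and 5.84, and next on control 4, at 5.04 and 5.80. The part of endothelial cells, macrophages or adipocytes in the Cd36 values was not tested.

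Fabp5, the cytosolic carrier gene, read 8.50, 8.55 and 9.33 in ethanol 2, 3 and 4, against 8.79, 8.12, 9.09 and 9.43 in control 1, 2, 3 and 4 in S69874_s_at. Both the lowest and the highest value were controls. The difference was -0.064 (SE 0.31, 95% confidence interval -0.75 to 0.63, limma adjusted p = 0.985). The nearest pattern among the 77 lipid genes was that of Dbi, which encodes the acyl-CoA binding protein, at a distance of 0.172.

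Acsl4, the acyl-CoA synthetase gene, had 3 probe sets, with 2 differences below 0 and 1 above, and none passed. The brightest, rc_AI236284_s_at, read 5.99, 6.27 and 6.50 in ethanol 2, 3 and 4, against 6.60, 5.96, 6.22 and 6.42 in control 1, 2, 3 and 4, and the groups covered nearly the same range. The difference was -0.047 (SE 0.18, 95% confidence interval -0.45 to 0.36, limma adjusted p = 0.982). D85189_at gave -0.23 (-0.96 to 0.50) and rc_AI045002_at gave 0.028 (-0.28 to 0.34). In D85189_at ethanol 2 was the lowest array, at 4.13, and control 4 the highest, at 5.65. Without ethanol 4 its difference was -0.57, and without ethanol 2 it was 0.12.

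Across the 10 genes the same arrays were often the low ones. Control 2 was the lowest of the 4 controls in the brightest probe set of 9 genes, all but Lpl, where control 3 was. Over all 23 probe sets of the 10 genes it was the lowest control in 14 (60.9%). Among all probe sets control 2 was the lowest control in 30.9%, and among the 2185 probe sets with the highest mean level, to which 7 of the 10 genes belong, in 46.2%. After quantile normalization, which gives all arrays the same spread, it was the lowest control in 8 of 10 genes, beside 33.0% of those 2185. Ethanol 2 and control 2 were together the 2 lowest of all 7 arrays in 5 genes, Acly, Me1, Scd, Fabp5 and Acsl4, beside 21.0% of those 2185. These were also the arrays with the lowest type 2 marker mean and the lowest SD, and the part of either in the gene values was not tested.

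The within-group SD of 6 genes (Acly, Fasn, Scd, Lpl, Cd36 and Fabp5) lay above the 90th percentile of all probe sets. It was 0.395 for Acly, 0.505 for Fasn, 0.545 for Scd, 0.753 for Lpl, 0.672 for Cd36 and 0.522 for Fabp5, beside a median of 0.193. Srebf1, at 0.111, lay at the 11.9 percentile.

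**Figure D4:**
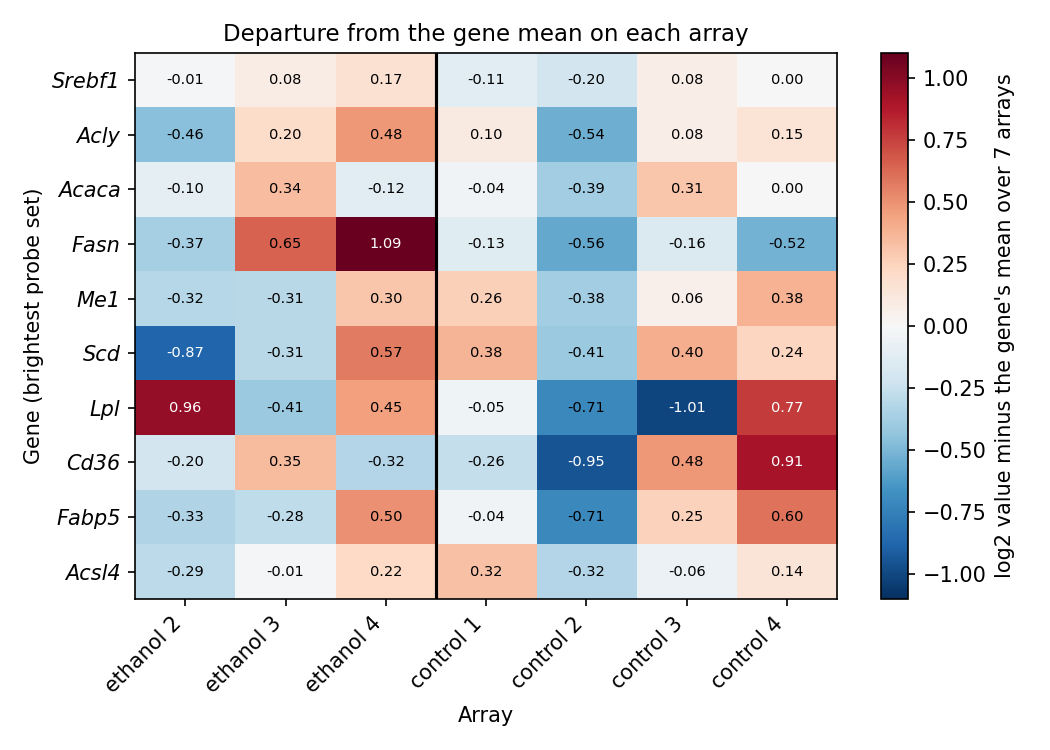
Departure of each gene's log2 value from its mean over the 7 arrays (colour and printed number), for the brightest probe set of the 10 genes (rows) on each array (columns, ethanol left of the line). Control 2 is below the mean in all 10 genes, with -0.20 for Srebf1 and -0.95 for Cd36, and Fasn on ethanol 4 is at 1.09.

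Other genes of the same pathways did not pass either. Of 77 measured genes on 4 lists, 37 had a difference above 0 and 40 below, and 0 passed in limma, with 1 higher and 1 lower at unadjusted p under 0.05. These 2 are 2.60% of the 77, beside 4.37% of all 4736 genes (1.79% higher and 2.58% lower). Their median was -0.0054, beside -0.014 over all genes. The lists were chosen with earlier results of these data known and are given as a description.

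Among 17 other genes on the synthesis list, 10 lay above 0 and 7 below, with a median of 0.15. That median was -0.026 with array weights, -0.017 without control 2 and -0.015 without ethanol 4, and above 0 in the other alternatives. Idh1, which encodes an NADPH-producing isocitrate dehydrogenase, stood at 0.37 (95% confidence interval -0.17 to 0.90, other probe set 0.0076). Slc25a1, the mitochondrial citrate carrier gene that supplies the substrate of the Acly product, stood at -0.14 (-0.50 to 0.21), and Acacb, the second acetyl-CoA carboxylase gene, at -0.080. Olah, a thioesterase gene, was at -0.29. The list also holds genes for subunits of AMP-activated kinase, which is not a synthesis enzyme. Of these, Prkaa1, Prkaa2 and Prkab1 stood at 0.23, 0.16 and 0.34, and Prkag1 at -0.15.

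Among 24 regulators, 11 lay above 0 and 13 below (median -0.0079). Insig1, a target of SREBP that holds its activation back, read 7.13, 8.06 and 8.06 in ethanol 2, 3 and 4, against 8.59, 7.82, 8.28 and 8.57 in control 1, 2, 3 and 4. Ethanol 2 was the lowest array and control 1 the highest, and the groups overlapped. Its difference was -0.57 (95% confidence interval -1.16 to 0.028, limma adjusted p = 0.967), and its other probe set gave -0.25. Cebpd, a transcription factor gene of fat cell formation, stood at 0.46 (-0.055 to 0.98), with other probe sets down to -0.12, and its array pattern was the nearest to Fasn, at a distance of 0.342. Ppara, a nuclear receptor gene of fatty acid oxidation, was at 0.26, and Nfya, an NF-Y subunit gene, at -0.31.

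Among 26 uptake, binding and activation genes, 12 lay above 0 and 14 below (median -0.027). Acsl3, another acyl-CoA synthetase gene, read 4.34, 4.75 and 5.12 in ethanol 2, 3 and 4, against 5.45, 5.40, 5.42 and 5.12 in control 1, 2, 3 and 4. Its difference was -0.61 (SE 0.18, 95% confidence interval -1.02 to -0.20, limma adjusted p = 0.967), while its second probe set gave 0.089. Cav1, which encodes the membrane protein caveolin-1 and is also on the endothelial list, read 5.43, 5.02 and 4.84 in ethanol 2, 3 and 4, against 4.48, 4.48, 4.13 and 4.99 in control 1, 2, 3 and 4. Its difference was 0.58 (SE 0.21, 95% confidence interval 0.098 to 1.05, limma adjusted p = 0.967). The fatty acid transporter genes Slc27a1 and Slc27a2 stood at -0.051 and 0.14. Of 11 glycerolipid storage genes 4 lay above 0 and 7 below (median -0.054), with Gpam, which starts glycerolipid synthesis, at -0.021 and the triglyceride synthesis gene Dgat1 at -0.085.

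Markers of other cell types were read on the same arrays, and none passed in limma. The mean of 17 fibroblast and smooth muscle markers was 4.95 to 5.11 on the ethanol arrays and 5.08 to 5.28 on the control arrays. Control 4, the lowest control, lay just below ethanol 2, and the other controls lay above every ethanol array. Of the 17 differences 14 lay below 0, beside 53.4% of all genes, and 6 of the 17 were lower at unadjusted p under 0.05, beside 2.58% of all genes. Eln, the elastin gene, read 5.70, 5.67 and 5.43 in ethanol 2, 3 and 4, against 6.74, 6.36, 6.46 and 6.01 in control 1, 2, 3 and 4, with no overlap and a difference of -0.80 (SE 0.17, 95% confidence interval -1.19 to -0.41, limma adjusted p = 0.403). The collagen genes Col3a1, Col1a2 and Col1a1 stood at -0.99, -0.62 and -0.50, each with a limma adjusted p = 0.967, while Vim, the vimentin gene, stood at 0.76 (-0.37 to 1.88).

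The mean of 8 airway epithelial markers was 6.75, 6.50 and 6.83 in ethanol 2, 3 and 4, against 6.85, 6.07, 6.14 and 6.23 in control 1, 2, 3 and 4. Control 1 was the highest array, and the other 3 controls lay below every ethanol array. In 2 of the 8 genes every ethanol array lay above every control, where 233 of all 4736 genes showed no overlap in either direction. Cyp2a3, a cytochrome P450 gene, read 7.44, 7.16 and 7.22 in ethanol 2, 3 and 4, against 6.50, 6.16, 6.13 and 5.68 in control 1, 2, 3 and 4, a difference of 1.15 (SE 0.19, 95% confidence interval 0.74 to 1.57, limma adjusted p = 0.0777). Sec14l3, a lipid-binding protein gene, stood at 1.11 (SE 0.31, 95% confidence interval 0.42 to 1.81, limma adjusted p = 0.906). Cyp2a3 and Sec14l3 were also the 2 genes at unadjusted p under 0.05, both higher. Of all 4736 genes, 1.79% were higher at that threshold. Of the 8 differences 6 lay above 0 and 2 below, beside 46.6% of all genes above 0. Scgb1a1 stood at -0.046 (95% confidence interval -0.51 to 0.42) and Foxj1 at -0.15 (-0.43 to 0.14). Cyp2f4 stood at 0.43 (-0.42 to 1.28), and the groups overlapped in each of these genes. The means of 14 lymphocyte markers were 4.77 to 4.87 on the ethanol arrays and 4.91 to 4.98 on the control arrays. The 4 red blood cell genes were 5.69 to 7.07 on the ethanol arrays and 6.19 to 6.43 on the control arrays, with ethanol 2 the highest. The highest array was control 1 in the fibroblast, airway and lymphocyte lists. The part of these cells in the values of the 10 fatty acid genes was not tested.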

How the data were processed

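The deposited table gave 1 value per probe set on each of 7 arrays, 8799 probe sets in all. Its unit is not named. From their range, 1.65 to 12.84, the deposited values were taken to be log2 expression, since a 16-bit scanner cannot reach that upper end on a natural-log scale. Array medians ran from 4.56 to 4.62. Array means were nearly equal, from 4.759 to 4.761, while array SDs ran from 1.29 to 1.46, so the arrays did not share 1 distribution. Per the labels, the arrays are Affymetrix. How the authors corrected background, summarised probes and normalised arrays, and so how the means came to be nearly equal, is not given in the sources used.

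Of these, 59 were array controls and stayed out. The platform annotation gave 1 symbol to 7006 probe sets, several to 308 and none to 1426, and 6985 matched RefSeq (GRCr8) by Entrez identifier with 0 symbols changed. Each of 8740 probe sets was tested, ethanol against control, with limma 3.58.1 in R 4.3.3 (two-sided, Benjamini-Hochberg adjustment over all). The brightest probe set by mean stood for a gene. The number of arrays limits precision, with a median SE of 0.148. The model was tested on simulated data.

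Members and gene lists were chosen with earlier results of these data known. All member probe sets were named, and from each list the first 2 genes measured, the 4 (pathways) or 3 (cell types) with the lowest p, and, for likeness, the 3 nearest in array pattern. Lipa, Fabp4, Plin2 and Dbi came in by likeness. Scd2, Prkab1 and Prkag1 were added after their values were seen. So were the macrophage markers Lgals3, Cd14, Aif1, Fcgr2b, C1qb, Mmp12, Ccr2 and Cx3cr1. Which of these were printed was also chosen after their values were seen.

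Alternatives were quantile normalization, median centring, leaving out probe sets below the 25th percentile or the median, a trended and robust prior, no variance moderation, array weights, a replicate block, averaging each gene's probe sets, and each array left out. Array weights used statmod 1.5.0. Figures were drawn with matplotlib 3.10.9.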

Additional observations from a re-analysis of the deposited data

Results flagged for a closer look

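A control was taken to stand apart where its gap to the nearest other control, divided by the range of the 4 controls, was above Dixon's 95% critical value. The 89 values examined were the 23 probe sets of the 10 genes, 54 genes of the pathway and cell type lists chosen by the rule for named genes, and the means of the 12 lists. In 7 of them a control stood apart, where chance gives about 1 in 20, and in 5.19% of all probe sets one did. Of the 10 genes the 4 probe sets were Acly J05210_g_at, at 8.146 on control 2 against 8.758 to 8.83 on the other controls, Me1 rc_AI171506_at, at 3.146 on control 2 against 2.841 to 2.877, Lpl L03294_at, at 5.381 on control 4 against 3.948 to 4.133, and Lpl L03294_g_at, at 5.099 on control 4 against 4.071 to 4.233. Among related genes, Slc27a1 lay at 5.298 and Acsl3 at 5.122 on control 4, against 5.572 to 5.598 and 5.396 to 5.448 on the other controls. Dgat1 lay at 6.206 on control 2 against 5.837 to 5.896. The other list genes were outside the 89, and over all 77 pathway genes the count was 10, among them Elovl5, at 4.53 on control 2 against 5.05 to 5.06, and Rxra, at 5.37 on control 4 against 5.90 to 5.99. These 2 were chosen after their values were seen.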

How the results depend on the processing

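Of 340 values from 16 alternatives to the 23 differences, 308 kept their direction and 32 reversed. Leaving out dim probe sets, the trended and robust prior and no variance moderation cannot move a difference, so their directions were fixed in advance. The replicate block gave the same differences as leaving out control 1. The count of kept directions includes all of these and is no measure of stability. None reached adjusted p under 0.05 and the lowest was 0.0832, for Fasn M76767_s_at without ethanol 2. Every Fasn, Lpl, Scd and Srebf1 value kept its direction. The count of probe sets past adjusted p stayed at 0 for these genes and for the 4 pathway lists under all alternatives run on the counts. Over all probe sets it was 13, with 0 without variance moderation and 23 with the replicate block. Of the 23 probe sets, 1 was at unadjusted p under 0.05, with 0 without variance moderation, 0 by the exact permutation test (chosen after seeing the data), 4 with array weights and 1 to 4 with each array left out.

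The cause of the reversals was not tested. With each array left out, Acaca J03808_at ran from -0.081 to 0.18, Acly J05210_at ran from -0.27 to 0.31, Acly J05210_g_at ran from -0.079 to 0.39, Acsl4 D85189_at ran from -0.57 to 0.12, Acsl4 rc_AI045002_at ran from -0.093 to 0.13, Acsl4 rc_AI236284_s_at ran from -0.17 to 0.085, Cd36 AB005743_at ran from -0.25 to 0.24, Cd36 AB005743_g_at ran from -0.43 to 0.19, Fabp5 S69874_s_at ran from -0.33 to 0.13, Me1 rc_AI171067_at ran from -0.094 to 0.024 and Me1 rc_AI171506_g_at from -0.17 to 0.023. The mean of the gene's probe sets gave -0.027 for Acly. Array weights gave 0.017 for Acly J05210_at and -0.066 for Acsl4 rc_AI045002_at. The replicate block gave 0.037 for Acly J05210_at, 0.053 for Acsl4 rc_AI236284_s_at and -0.024 for Acsl4 rc_AI045002_at. The block rests on shared replicate numbers alone, and it sets control 1 aside. Deviations of same-numbered arrays correlated at 0.425, 0.0666 and 0.432 for numbers 2, 3 and 4. The control that correlated best was control 2 for ethanol 2, control 1 for ethanol 3 and control 4 for ethanol 4. Whether same-numbered arrays share anything beyond the number was not tested. Dim probe sets of Me1 and the second Scd probe set limit what could be seen in them.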
